A study of Rattus norvegicus with 6 samples.

Results

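Integrins are the receptors that fix a cell to its matrix, and laminins are trimeric glycoproteins of the basement membrane that several of them bind. Of the 34156 genes in the deposited count table, 34 protein-coding genes carried the name of an integrin alpha chain (17), an integrin beta chain (7) or a laminin chain (10), and these 34 genes were followed here. They were chosen by gene name and biotype alone, with no measured value. The RNA came from rat RA-FLS, the fibroblast-like synoviocytes of the joint lining labelled as rheumatoid arthritis cells of wild-type genotype. The TNF-α group comprised 3 libraries of cells given 10 ng/ml TNF-α, the inflammatory cytokine. The TNF-α+EMO group comprised 3 libraries of cells given the same TNF-α and 80 µmol/L emodin (EMO), a plant anthraquinone. All 6 libraries therefore carried TNF-α, and the comparison is of EMO on top of TNF-α. The sample labels give the time as day 5 and the methods of the study give 24 h of treatment. The cells were a purchased stock, and no library of untreated cells or of EMO alone was analysed here.

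Each integrin is a pair of one alpha and one beta chain, and the alpha chain largely sets the ligand: collagen, laminin, proteins with the RGD (Arg-Gly-Asp) motif such as fibronectin and vitronectin, or counter-receptors on other cells. Itgb1 is the partner of most alpha chains and is usually made in excess, so that the amount of alpha chain limits the number of pairs at the surface. A laminin is built from an alpha, a beta and a gamma chain, and in the arthritic joint fibroblast-like synoviocytes use integrins to attach to and invade cartilage matrix.

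The libraries held 16813322 to 17794455 counts. Counts in replicate 3 of the TNF-α+EMO group lay farthest from those of its group, with a chi-square per gene of 16.1 to 25.2 against the other two, where pairs of TNF-α libraries had 4.72 to 5.85. Without it 23 chains were called lower and 2 higher, the counts given for all libraries. Of 12 synovial fibroblast markers in the table, 8 had over 3 counts in every TNF-α library and 7 in every TNF-α+EMO library, and their summed length-scaled level (normalised counts per kb of gene length and per 1000000 counts) was 3341 to 3555 and 1014 to 1096. Of these fibroblast markers, Pdgfra had 21089 to 21517 counts under TNF-α and 175 to 238 under TNF-α+EMO. Vim fell less, from a mean level of 1927 to 1015, and made up most of the sum with EMO. Dcn alone went the other way, with 0, 4 and 1 counts against 33, 24 and 26, so it passed 3 counts only with EMO. The synoviocyte markers Thy1, Prg4 and Pdpn had at most 7 counts in any library. Of 12 macrophage and leukocyte markers, 2 and 4 passed 3 counts in every library of the TNF-α and TNF-α+EMO groups, and the summed level was 43.5 to 47.0 and 29.4 to 32.0. Ptprc, the pan-leukocyte marker, had at most 1 count in any library, and Tyrobp and Cd163 had 0 in every library. Of 9 epithelial markers, 1 and 2 passed 3 counts in every library, and they summed to 297 to 323 and 59.3 to 69.7, nearly all from Krt8, with Epcam, Krt5 and Esrp1 at 0 in every library. Of 7 endothelial and 6 chondrocyte markers, 3 of each passed under TNF-α and 0 under TNF-α+EMO, with sums of 6.55 to 8.35 and 0.315 to 0.546, and of 8.17 to 9.80 and 0.172 to 0.192. Muscle markers (8, of which 2 and 3 passed) summed to 5.00 to 5.27 and 1.97 to 2.67, and Schwann and neural crest markers (5, of which 3 and 2 passed) to 1.09 to 1.40 and 5.07 to 5.16. The part of these marker shifts in the chain levels was not tested, and in bulk RNA fewer cells of a type and less RNA per cell cannot be told apart.

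Most integrin and laminin chains had less RNA in the TNF-α+EMO group. With edgeR's quasi-likelihood test across 13614 genes, a gene was called when its adjusted p (Benjamini-Hochberg) was under 0.05 and its log2 fold change was past 1 in either direction, which 47.3% of all tested genes met. A log2 fold change is TNF-α+EMO over TNF-α, so that a negative value is lower with EMO. Of the 34 chains, 27 had at least 10 counts in 3 libraries and were tested, 23 were called lower and 2 higher (Itgax and Itgam), where 27.8% and 19.5% of all tested genes were called lower and higher. Itgb1 and Itga2b passed the adjusted p alone, which 80.9% of all tested genes did. In all 27 the groups did not overlap, as in 82.9% of tested genes. The median log2 fold change of the 27 was -3.61, or -3.00 with the 3 genes at 0 counts in the TNF-α+EMO group set to their bounds, against -0.01 over all tested genes. These counts carry a limit, since 9 of the 27 had under 10 counts in every library of one group. They reached the filter through the other group alone and had to differ. Itga10 and Itgb4 also had under 10 counts in at least 1 TNF-α+EMO library, at 4, 0 and 11 and at 6, 10 and 11. Among the 16 chains with at least 10 counts in every library, 13 were called lower and 1 higher with a median of -2.24, where 41.2% of such genes were called, 22.2% lower and 19.0% higher, and their median was 0.09.

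**Figure D1:**
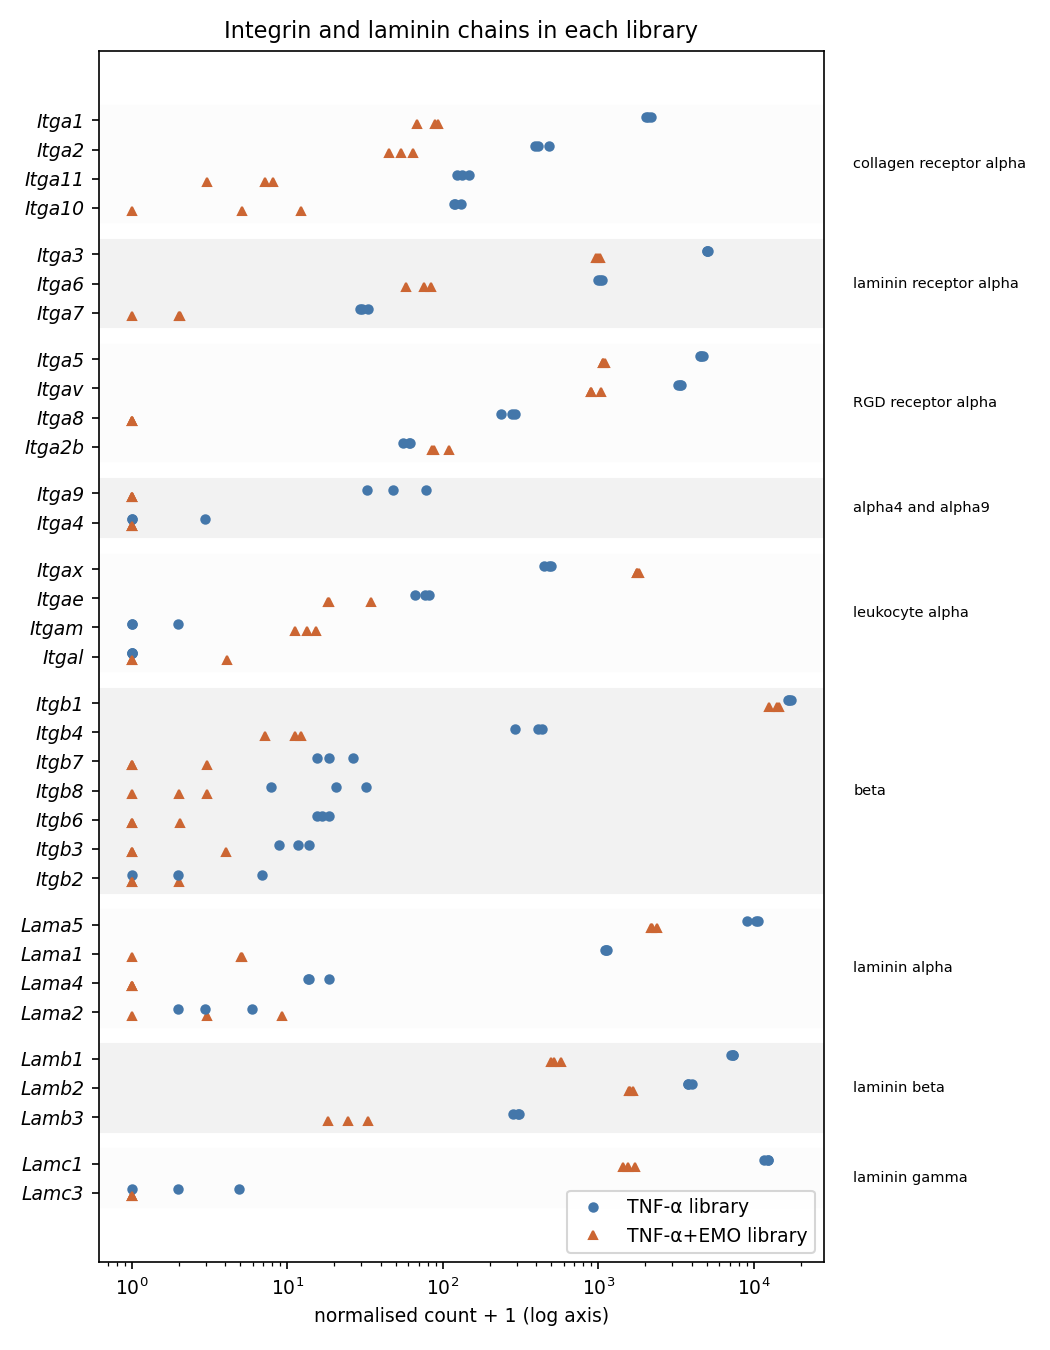
Normalised counts of the integrin and laminin chains reported here in the 6 libraries, drawn as the count + 1 on a logarithmic axis, with circles for TNF-α libraries, triangles for TNF-α+EMO libraries and bands for ligand classes and chain types. Itgb1 had the highest value of all chains in every library, and Itgax was the abundant chain with higher values in the TNF-α+EMO libraries.

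Of the 34 genes, 26 were matched by symbol to a start site in the RefSeq promoter table (build GRCr8). The 250 bases before the start of 4 of them are shown because they span the range of responses: Itgb1 had the highest level, Itgax rose, and Lamb1 and Lama1 fell. Each is printed 5′ to 3′ on the strand of its gene, all on the plus strand, and capitals mark a match to a motif searched on both strands.
Itgb1 (chr19:73602027-73602276): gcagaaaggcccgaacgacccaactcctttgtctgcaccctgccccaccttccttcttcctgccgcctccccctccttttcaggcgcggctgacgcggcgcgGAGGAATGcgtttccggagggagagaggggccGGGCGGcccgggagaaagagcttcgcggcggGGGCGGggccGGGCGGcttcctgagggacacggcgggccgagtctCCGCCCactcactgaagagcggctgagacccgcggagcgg
Itgax (chr1:192149799-192150048): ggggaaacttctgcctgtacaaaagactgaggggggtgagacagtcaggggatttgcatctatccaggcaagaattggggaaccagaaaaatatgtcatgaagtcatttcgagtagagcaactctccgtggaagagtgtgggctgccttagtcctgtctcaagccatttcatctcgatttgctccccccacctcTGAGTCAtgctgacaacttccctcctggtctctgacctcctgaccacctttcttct
Lamb1 (chr6:53562846-53563095): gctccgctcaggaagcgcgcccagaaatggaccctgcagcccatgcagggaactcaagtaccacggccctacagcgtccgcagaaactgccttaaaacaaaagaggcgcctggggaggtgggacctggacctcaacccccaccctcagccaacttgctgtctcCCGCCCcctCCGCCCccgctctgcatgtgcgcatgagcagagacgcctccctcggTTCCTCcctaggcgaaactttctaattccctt
Lama1 (chr9:115139298-115139547): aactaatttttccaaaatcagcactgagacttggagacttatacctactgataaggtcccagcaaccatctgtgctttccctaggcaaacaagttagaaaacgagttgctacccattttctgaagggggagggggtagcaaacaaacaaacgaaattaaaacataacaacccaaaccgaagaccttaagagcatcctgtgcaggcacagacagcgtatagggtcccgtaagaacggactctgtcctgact
The capitals in Itgb1 are 4 matches of the GC box (GGGCGG) and an ETS core (GAGGAA) that overlaps a TEAD match (GGAATG). In Itgax they are an AP-1 match (TGANTCA) 49 bases before the start, in Lamb1 they are GC boxes and an ETS core, and Lama1 held no match. The GC box was in 53.8% of the 26 promoters and in 30.5% of all 33469, and the ETS core in 42.3% and 23.3%. The TEAD motif was in 19.2% and 12.1%, the TATA box (TATAAA) in 7.69% and 12.9%, and the core of the xenobiotic response element (GCGTG) in 19.2% and 25.9%. The AP-1 motif was in 3.85%, Itgax alone, and in 6.34% of all, and the NF-κB motif (GGGNN followed by TTTCC) in 0 and in 1.30%. The median GC content of the 26 was 57.8%, against 51.2% for all. A match is a description of the letters, not a bound site.

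All 4 collagen receptor alpha chains were called lower, where 27.8% of all tested genes were. Of these, Itga11 reached the filter through the TNF-α group alone. Itga1 (2:47127219-47281421 in the deposited coordinates, build Rnor_6.0), which pairs with Itgb1 to bind collagen IV in particular, had 2023, 2191 and 2094 normalised counts under TNF-α and 67.0, 92.1 and 87.6 under TNF-α+EMO, in the order of replicates 1 to 3 as in all values listed. Every TNF-α library was far above every TNF-α+EMO library, and the log2 fold change was -4.67 (SE 0.11, adjusted p = 3.3e-11). Its annotated span holds Pelo on the same strand, whose counts were 1635 to 1706 under TNF-α and 4278 to 5137 under TNF-α+EMO, so reads shared with Pelo would leave the level of Itga1 uncertain. Itga2 (2:47000323-47096961), a receptor for fibrillar collagen, had 412, 480 and 392 against 62.9, 44.0 and 53.0, a log2 fold change of -3.00 (SE 0.16, adjusted p = 1.5e-08). Itga1 and Itga2 are neighbours on one strand of chromosome 2, with 30257 bases and 0 annotated genes between them. Itga11 (8:67615635-67683973), a fibroblast receptor for fibrillar collagen, had 146, 122 and 132 against 6.19, 2.05 and 7.13, and fell by 4.67 on the log2 scale (SE 0.34, adjusted p = 2.0e-07). Itga10 (2:198772937-198792253), a collagen receptor best known from cartilage, had 120, 131 and 117 against 4.13, 0 and 11.2. Its TNF-α+EMO values were uneven, and the log2 fold change was -4.55 (SE 0.60, adjusted p = 9.5e-05), or -5.82 without replicate 3 of that group.

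Summed over the 4 collagen receptor chains, the length-scaled level was 38.9 ± 1.72 in the TNF-α group and 2.08 ± 0.144 with EMO (SD, n = 3 each), 18.7-fold lower. This scale is used wherever levels of different genes are compared or summed.

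All 3 laminin receptor alpha chains were called lower, where 27.8% of all tested genes were. Of these, Itga7 reached the filter through the TNF-α group alone. Itga3 (10:82855613-82887497), the most abundant of them and a receptor for laminins with the Lama5 or Lama3 chain, had 5102, 5009 and 5025 normalised counts against 973, 1001 and 1027, with a log2 fold change of -2.33 (SE 0.06, adjusted p = 4.7e-11). Itga6 (3:58443101-58515124), which pairs with Itgb1 or Itgb4, had 1055, 1000 and 1030 against 75.3, 82.9 and 57.0, and fell by 3.84 (SE 0.12, adjusted p = 2.8e-10). Itga7 (7:3355116-3384675), the laminin receptor of muscle, was low throughout, at 28.4, 32.2 and 29.2 against 1.03, 0 and 1.02. As it had 1 count in each of 2 TNF-α+EMO libraries, its ratio is given with its counting interval at 95% confidence, 43.9 (11.8 to 368), with an adjusted p of 5.6e-06. The class had a summed length-scaled level of 70.2 ± 0.824 and 12.6 ± 0.250, 5.59-fold lower.

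Of the RGD receptor alpha chains, the abundant Itga5 and Itgav and the scarcer Itga8 fell. Itga5 (7:144970444-144993652), the fibronectin receptor chain, had 4750, 4541 and 4558 normalised counts against 1066, 1109 and 1069, with a log2 fold change of -2.09 (SE 0.06, adjusted p = 1.1e-10). Itgav (3:71114100-71202411), which serves vitronectin and latent TGF-β receptors with several beta chains, had 3277, 3415 and 3361 against 1047, 893 and 891, and fell by 1.83 (SE 0.07, adjusted p = 1.9e-09). Both separated the groups with little spread inside each. Itga8 (17:79321900-79676499), a mesenchymal receptor for nephronectin, had 280, 293 and 237 against 0 counts in each library with EMO, which is at least 87.7-fold lower by a floor of 3 counts per library (adjusted p = 1.2e-08). Itga2b (10:90398132-90415070), the platelet fibrinogen receptor chain, went the other way without reaching the fold threshold, at 59.8, 60.5 and 54.6 against 86.6, 83.9 and 109, a log2 fold change of 0.68 (SE 0.20, adjusted p = 0.0096). The class had a summed length-scaled level of 125 ± 0.862 and 32.8 ± 1.32, 3.80-fold lower.

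Itga9 (8:127271289-127572988), a receptor for tenascin-C and VCAM-1, had 31.4, 46.8 and 77.0 normalised counts in the TNF-α libraries, which varied more than most chains, and 0 in every TNF-α+EMO library. It was at least 16.8-fold lower (adjusted p = 1.6e-05). Its relative Itga4, a leukocyte chain, had 2 counts in one TNF-α library and 0 in all others and was not tested.

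Of the 3 leukocyte alpha chains tested, Itgax and Itgam were called higher and Itgae lower. Itgax (1:199555722-199576932), known as CD11c and a marker of dendritic cells and some macrophages, had 495, 450 and 480 normalised counts under TNF-α and 1818, 1784 and 1780 under TNF-α+EMO. Replicates lay close together in both groups, and Itgax was 3.78-fold higher with EMO (log2 fold change 1.92, SE 0.07, adjusted p = 7.7e-10). The annotated span of Itgam (1:199495298-199623960), known as CD11b, contains that of Itgax on the same strand, so reads could be split between these related genes and their separate values are uncertain. Itgam had 1, 0 and 0 counts against 12, 10 and 14, a ratio of 37.8 (6.36 to 1532) in favour of the TNF-α+EMO group (adjusted p = 2.1e-04). Its fitted log2 fold change of 4.78 rested on the single count of TNF-α replicate 1 and was 6.63 without it. Their beta chain, Itgb2, without which CD11b and CD11c do not reach the cell surface, had 0, 6 and 1 counts against 0, 1 and 0. Itgal, the third chain of this family in the table, had 0 counts in every TNF-α library against 0, 3 and 0 with EMO. Of the leukocyte markers beside it, Laptm5 had 1, 0 and 0 counts against 29, 49 and 39, Cd68 had 155, 172 and 142 against 259, 239 and 253, and Cd14 had 1163, 1055 and 1139 against 451, 508 and 536. RNA of the Itgax gene thus rose where that of its partner and of Ptprc stayed at or near 0. Itgae (10:59539405-59711874), the E-cadherin receptor chain of intraepithelial lymphocytes, had 80.4, 65.3 and 76.0 normalised counts against 17.5, 33.8 and 17.3, and fell by 1.69 (SE 0.30, adjusted p = 3.6e-04). Its span overlaps 5 annotated genes, so the value of Itgae is uncertain. Among them Haspin, on the opposite strand, had 356 to 400 counts against 74 to 127. On the same strand Camkk1 had 82 to 98 against 11 to 16, and Ncbp3 had 607 to 613 against 541 to 605. Also on that strand, Atp2a3 went the other way, with 0 to 3 against 39 to 58, and P2rx1 had 1 to 3 against 0. The leukocyte class had a summed length-scaled level of 7.01 ± 0.408 and 22.8 ± 0.239, 3.25-fold higher with EMO, nearly all of it Itgax.

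**Figure D2:**
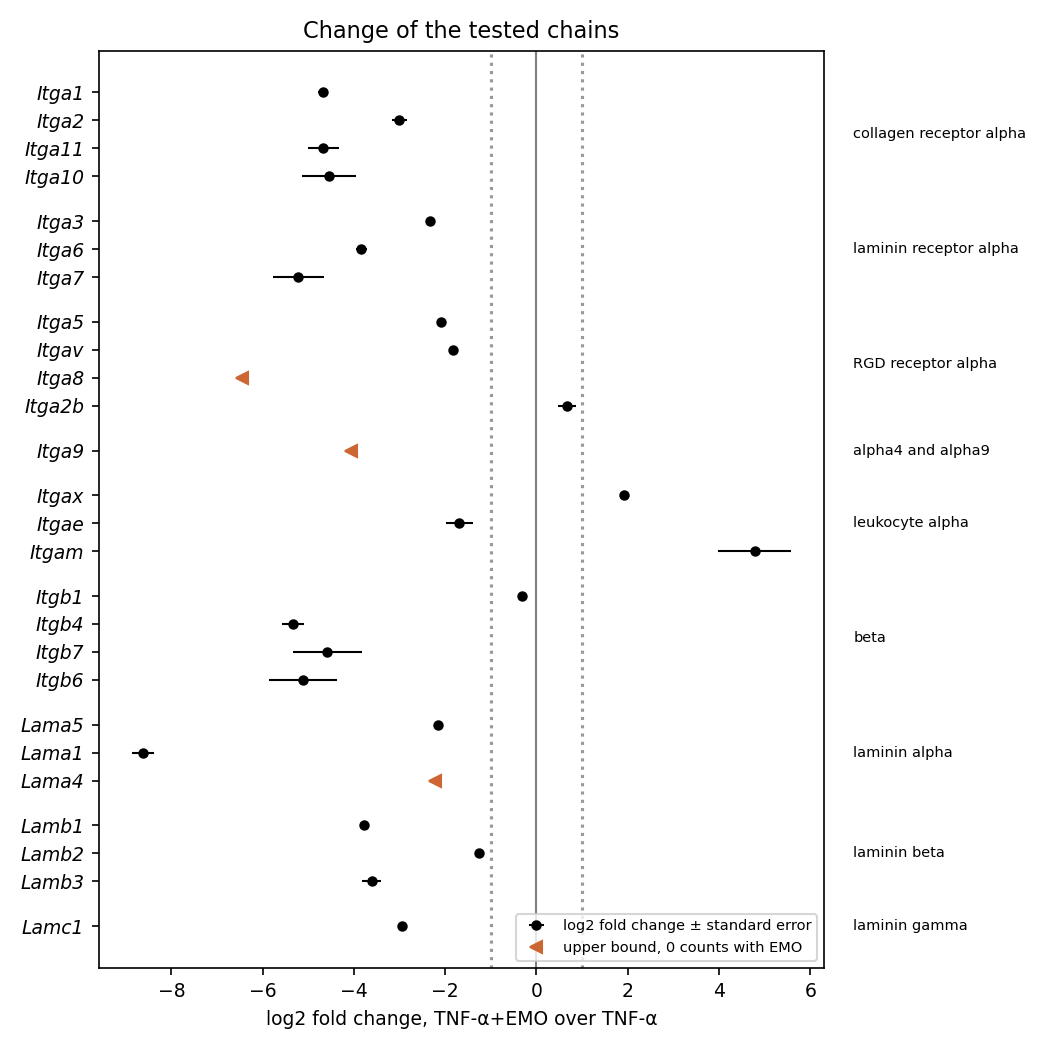
Log2 fold change (TNF-α+EMO over TNF-α) of the tested chains reported here, each with its standard error and dotted lines at the call threshold of 1, grouped by ligand class and chain type, where triangles mark upper bounds for chains at 0 counts in every TNF-α+EMO library. Itgax and Itgam lie to the right of 1, Itgb1 lies at -0.31, and the falls run from -1.26 for Lamb2 to -8.63 for Lama1.

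Among the tested beta chains Itgb1 had the smallest log2 fold change. Itgb1 (19:61677542-61725535), the common partner, had 16513, 17459 and 16972 normalised counts under TNF-α and 14571, 14065 and 12583 under TNF-α+EMO. The groups did not overlap, but the difference was small, 1.24-fold lower with EMO (log2 fold change -0.31, SE 0.06, adjusted p = 0.0011), and it did not reach the fold threshold. Per kb of length its level was 270 ± 7.53 and 219 ± 16.4, above that of any other chain in both groups. Itgb4 (10:104523996-104561078), the hemidesmosome chain that pairs with Itga6, had 409, 431 and 291 normalised counts against 6.19, 10.2 and 11.2, and fell by 5.34 (SE 0.25, adjusted p = 5.1e-09). It overlaps Galk1 on the opposite strand, which had 1091 to 1327 counts against 359 to 520. Reads shared with Galk1 would leave the level of Itgb4 uncertain. Itgb6 (3:46652623-46726958), an epithelial chain that activates latent TGF-β, had 15.7, 14.6 and 17.5 against 1.03, 0 and 0, a count ratio of 46.7 (8.00 to 1882, adjusted p = 7.1e-05). Itgb7 (7:143820900-143837780), a lymphocyte chain, had 25.5, 17.6 and 14.6 against 2.06, 0 and 0, a ratio of 28.1 (7.45 to 238, adjusted p = 1.8e-04). For these 2 low chains a single library decided the fitted size, since the log2 fold change of Itgb6 was -5.11 and that of Itgb7 -4.58, and without replicate 1 of the TNF-α+EMO group they were -7.02 and -7.28.

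The remaining beta chains with a partner in Itgav did not reach the filter. Itgb8, which activates latent TGF-β, had 7, 32 and 20 counts against 0, 2 and 1, a ratio of 18.8 (6.11 to 93.5). Itgb3, the vitronectin and fibrinogen receptor chain, had 13, 8 and 11 against 0, 0 and 3, a ratio of 10.2 (3.18 to 51.9). Itgb5, the other Itgav partner, is listed in the table as a processed transcript rather than a protein-coding gene and so is not among the 34, but the Itgav pairs turn on it. Itgb5 (11:70056500-70172372) had 15933, 15140 and 14673 normalised counts against 475, 527 and 451, 31.5-fold lower with EMO (log2 fold change -4.98, SE 0.08, adjusted p = 3.2e-12). Per kb its level went from 228 ± 9.54, next to that of Itgb1, to 7.25 ± 0.579.

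Itgb1 was next compared with its own partners. The alpha chains that can pair with Itgb1 had a summed length-scaled level of 234, 235 and 232 under TNF-α and of 47.1, 45.3 and 45.0 under TNF-α+EMO, 5.10-fold lower. Itgb1 per unit of summed alpha chain was 1.13, 1.18 and 1.16 under TNF-α and 4.93, 4.94 and 4.45 under TNF-α+EMO. The means were 1.16 ± 0.0286 and 4.77 ± 0.282 (SD, n = 3 each), and the groups lay far apart against their spread. Levels of RNA are compared here, and the amount of chain protein at the surface was not measured.

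**Figure D3:**
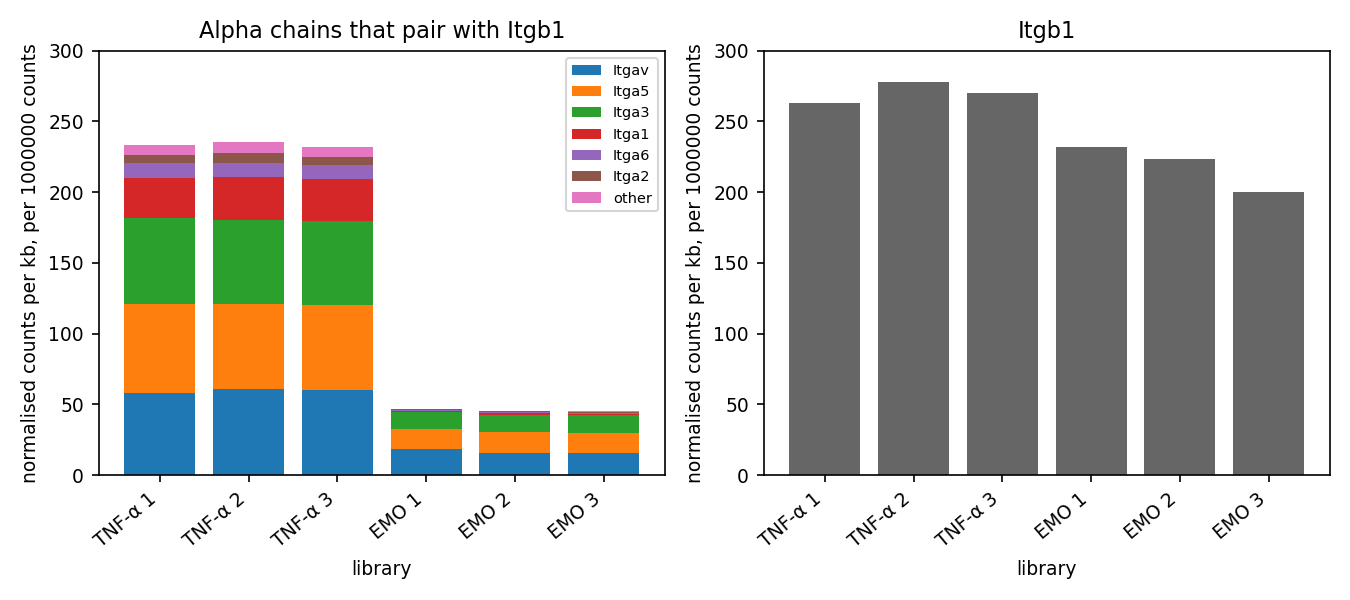
Length-scaled level (normalised counts per kb and per 1000000 counts) in each library (EMO stands for TNF-α+EMO), with the alpha chains that pair with Itgb1 stacked on the left and Itgb1 on the right on the same scale. The alpha stacks go from 232 to 235 under TNF-α to 45.0 to 47.1 under TNF-α+EMO, while the Itgb1 bars stay above 200.

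Within the Itgb1-pairing alpha pool, collagen receptor chains held a smaller share with EMO. Their share went from 16.6% to 4.54%, with Itga1 alone going from 12.6% to 2.51%. The share of Itgav went from 25.6% ± 0.479 to 36.7% ± 2.54 and that of Itga5 from 26.2% ± 0.700 to 31.3% ± 1.23. Laminin receptor chains held 30.1% and 27.5%, within which Itga3 held 25.6% and 25.9% (exact permutation test, two-sided, p = 0.8) while Itga6 went from 4.30% to 1.53%. For the other shares named here the groups did not overlap, and the exact permutation p was 0.1, the smallest that 3 libraries against 3 allow, so that no share could pass 0.05.

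Of 24 alpha and beta pairs listed by ligand class, 16 had both chains tested. In 6 of these a chain had 3 counts or fewer in total with EMO, so that its ratio was largely set by the 0.5 added to each count, and no value is given for them. The other 10, counted apart after the data were seen, did not overlap between groups in the per-library log2 ratio of alpha to beta (exact permutation p = 0.1 each, the smallest possible). Of all tested genes 82.9% did not overlap in normalised counts, and no such share is given for ratios of other genes. The ratio was lower with EMO in 8 pairs, all of them with Itgb1. As Itgb1 is the denominator of all 8 and had a log2 fold change of -0.31, each difference mostly restates the fall of its alpha chain. Against Itgb1 the difference in log2 ratio was -1.52 for Itgav, -1.79 for Itga5 and -2.03 for Itga3, the abundant chains. It was -2.69 for Itga2, -3.54 for Itga6, -4.37 for Itga1 and -4.41 for Itga11. For Itga10 it was -5.03, but its ratio varied widely with EMO (SD 2.38). In TNF-α+EMO replicate 2 Itga10 had 0 counts, so there too the added 0.5 set the ratio. In the other 2 pairs the ratio was higher with EMO, by 3.15 for Itgav with Itgb5 and by 1.45 for Itga6 with Itgb4. Itgav RNA thus had a higher ratio to Itgb5 with EMO, and a lower ratio to Itgb1.

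All 8 laminin chains that could be tested were called lower, where 27.8% of all tested genes were. Of these, Lama1 and Lama4 had under 10 counts in every TNF-α+EMO library and reached the filter through the TNF-α group alone. The 6 with at least 10 counts in every library were all called lower, where 22.2% of such genes were. Lama5 (3:175553045-175601127), the widespread alpha chain of mature basement membranes, had 10350, 10685 and 9078 normalised counts under TNF-α and 2212, 2170 and 2392 under TNF-α+EMO, a log2 fold change of -2.15 (SE 0.08, adjusted p = 6.0e-10). Lama1 (9:115916907-116042123), the alpha chain of early embryonic basement membranes, had 1112, 1143 and 1128 against 0, 4.09 and 4.07, next to nothing in every TNF-α+EMO library. The count ratio was 413 (209 to 957), with a log2 fold change of -8.63 (SE 0.24, adjusted p = 1.2e-10), the largest fall of the chains with counts in both groups. Lama4 (20:44060731-44209614), a chain of vessel and mesenchymal laminins, had 12.8, 12.7 and 17.5 against 0 in every library, at least 4.66-fold lower (adjusted p = 1.4e-04). It overlaps Fam229b. Lama2, the muscle and nerve chain, had 5, 2 and 1 counts against 2, 8 and 0, a ratio of 0.763 (0.262 to 2.15) whose interval includes 1. Among the 4 laminin alpha chains analysed here, the share of Lama5 per kb went from 89.0% to 99.7%. That of Lama1 went from 10.8% to 0.128%. Lama3 was not among these chains.

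All 3 laminin beta chains in the table were called lower, where 27.8% of all tested genes were. The order of the abundant ones differed between the groups. Lamb1 (6:50528823-50596079), the beta chain of most embryonic and fibroblast laminins, had 7360, 7394 and 7193 normalised counts against 499, 576 and 519, with a log2 fold change of -3.78 (SE 0.07, adjusted p = 8.0e-12). Lamb2 (8:117268337-117280517), the beta chain of the neuromuscular junction and the glomerulus, had 4035, 3768 and 3805 against 1574, 1592 and 1665, and fell by 1.26 (SE 0.06, adjusted p = 6.1e-09), the least of the laminin chains. Per kb of length, the ratio of Lamb2 to Lamb1 was 0.524, 0.487 and 0.506 under TNF-α and 3.02, 2.64 and 3.07 under TNF-α+EMO. Lamb1 was thus the more abundant in every TNF-α library and Lamb2 in every TNF-α+EMO library. Lamb1 held 64.0% ± 0.673 of the laminin beta RNA in the TNF-α group and 25.2% ± 1.64 in the TNF-α+EMO group, and Lamb2 held 32.4% ± 0.845 and 73.2% ± 1.30 (SD, n = 3 each, exact permutation p = 0.1, the smallest possible). Lamb3 (13:112031594-112073186), the beta chain of the epithelial anchoring laminin, had 283, 308 and 302 normalised counts against 32.0, 17.4 and 23.4, and fell by 3.61 (SE 0.21, adjusted p = 2.8e-08). Lamb4 and Lama3 were not analysed here.

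**Figure D4:**
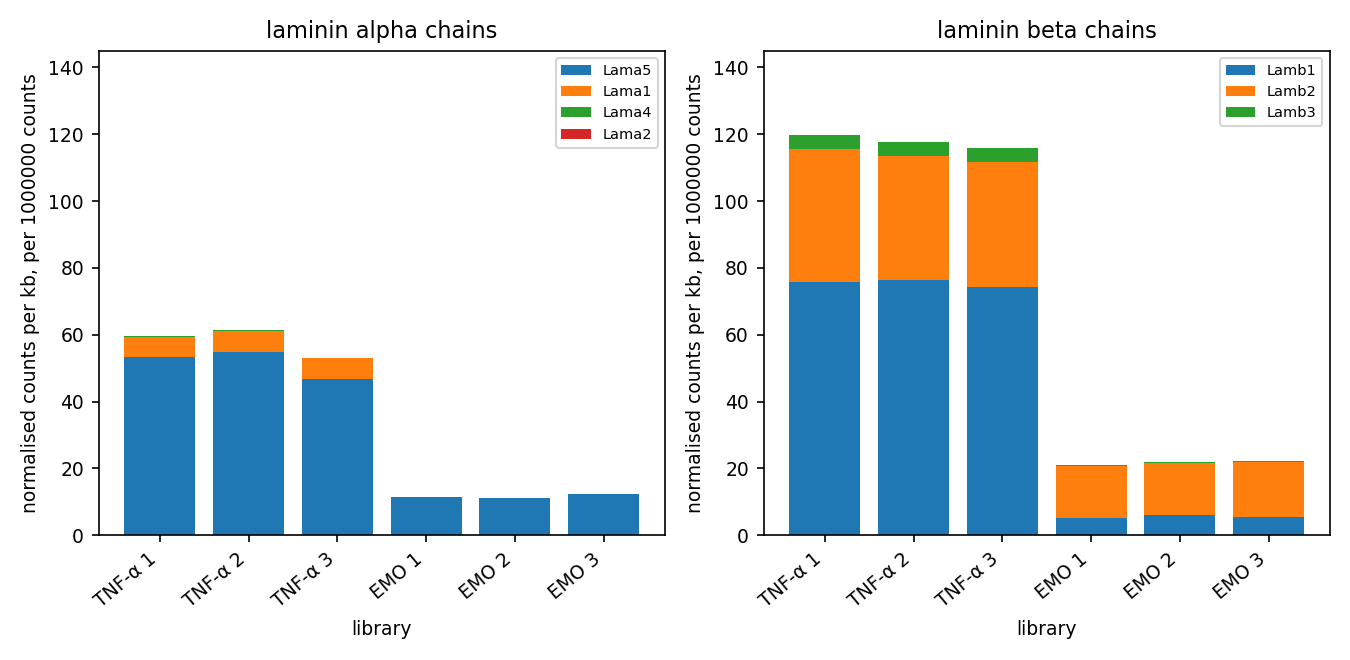
Laminin alpha and beta chains in each library (EMO stands for TNF-α+EMO), stacked in 2 panels on the length-scaled level (normalised counts per kb and per 1000000 counts). In the beta panel Lamb1 takes most of each TNF-α bar, and Lamb2 takes most of each TNF-α+EMO bar.

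Lamc1 (13:70658707-70783515), the gamma chain of most laminins, had 12353, 12442 and 11584 normalised counts against 1731, 1554 and 1443, with a log2 fold change of -2.94 (SE 0.08, adjusted p = 6.7e-11). Lamc3 had 1, 4 and 0 counts against 0 in every TNF-α+EMO library and was not tested. By class, laminin alpha RNA was 4.98-fold and beta RNA 5.43-fold lower with EMO on the length-scaled level.

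The partners that laminins meet in the basement membrane and at the cell surface were also lower. Of 18 listed, 17 were in the table and 15 were tested, and 14 were called lower and 0 higher, where 27.8% of all tested genes were called lower. Their median log2 fold change was -2.41. Col4a1, a chain of the collagen IV network, fell by 5.16 (SE 0.09), and Nid2, a nidogen that links laminin to collagen IV, and Col4a5 were at -4.39 (SE 0.08) and -4.38 (SE 0.13). Nid1 was at -3.67 and Dag1, the dystroglycan receptor for laminin, at -1.81. The exception was Rpsa, a ribosomal protein also named as a laminin receptor, with a log2 fold change of 0.54 past the adjusted p alone. Of 25 listed symbols of other integrin ligands, 21 were in the table and 16 were tested. The list names Ccn1 and Ccn2 also by their older symbols Cyr61 and Ctgf. Of the 16 tested, 14 were called lower and 0 higher, where 27.8% and 19.5% of all tested genes were, with a median of -3.91. Col3a1, a fibrillar collagen, fell by 8.76 (SE 0.12), and Thbs1, thrombospondin 1, was at -8.10 (SE 0.09). Col3a1 is also among the fibroblast markers given above.

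The adhesion machinery list holds the proteins that join integrins to actin and signalling and some of their membrane partners. Of 31 listed, 28 were tested, and 9 were called lower and 1 higher, where 27.8% and 19.5% of all tested genes were. Of the rest, 11 passed the adjusted p alone and 7 did not pass it. The median log2 fold change was -0.57. Several activators and kinases had small values: Tln1, a talin that switches integrins on, had a log2 fold change of -0.44, Fermt2, a kindlin, -0.07 (adjusted p = 0.39), Pxn, the scaffold paxillin, -0.10 (adjusted p = 0.17), Ptk2, focal adhesion kinase, -0.30, and Ilk 0.26. Among those called lower were Vcl (vinculin) at -1.77, Actn1 (alpha-actinin) at -1.98, the second talin Tln2 at -3.66 and the tensin Tns3 at -4.10. The lowest were Cd9, a tetraspanin partner of integrins with 49.0, 79.0 and 84.8 normalised counts against 0 in each library with EMO (at least 23.1-fold lower), Fblim1 at -5.30 (SE 0.17) and Cav1 at -5.29 (SE 0.08). Itgb1bp1, which binds the Itgb1 tail and restrains its activation, was the only member called higher, with 657, 658 and 648 normalised counts against 1501, 1538 and 1563 and a log2 fold change of 1.23 (SE 0.07, adjusted p = 1.6e-08). Cd151, a tetraspanin partner of Itga3, varied widely within both groups, at 1738, 299 and 413 against 224, 427 and 738 (adjusted p = 0.45).

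**Figure D5:**
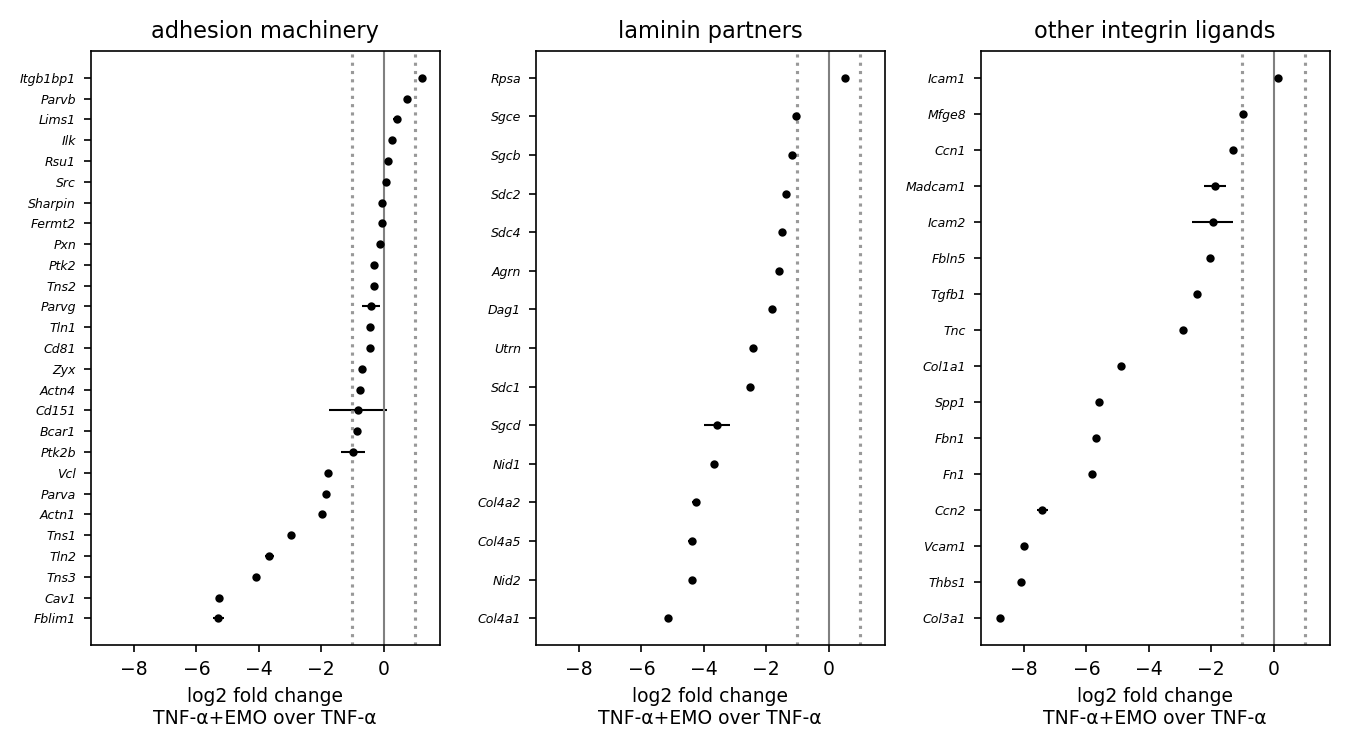
Log2 fold change (TNF-α+EMO over TNF-α) of the tested genes of the adhesion machinery, laminin partner and integrin ligand lists, 1 point per gene with its standard error and dotted lines at the call threshold of 1, leaving out Cd9, which is at 0 counts with EMO. Of the 28 machinery genes tested, 18 lie between the dotted lines (median of all -0.57), and those called lower reach -5.30 among the genes drawn. Nearly all laminin partners and ligands lie below -1 (medians -2.41 and -3.91).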

How the data were processed

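RNA-seq of 6 libraries of rat RA-FLS was analysed, grouped by the sample labels. According to the methods, poly(A) RNA was sequenced on an Illumina HiSeq after NEBNext library preparation and aligned with Hisat2 v2.0.5. The submitters' processing notes also name FastQC, Trimmomatic and the build Rnor 6.0. The counting program, the annotation release and the strand setting are not given in the sources used here, so reads of overlapping genes may not be separated. The authors deposited raw counts per gene, which are the values analysed. The authors also deposited FPKM values, used only for 1 alternative scale of the chain ratios (log2 with a pseudocount of 0.01). The deposited columns of the authors' own comparison (group means, log2 fold changes, p-values and adjusted p-values, made with DEseq) were not used.

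The filter on low counts kept the 13614 of 34156 genes that had 10 counts or more in 3 or more libraries. Counts were scaled by TMM and fitted with edgeR 4.0.16 (quasi-likelihood F test, robust) in R 4.3.3 over both groups with no block, with Benjamini-Hochberg adjustment over all tested genes. A normalised count is a count scaled to the mean effective library size. The SE is the log2 fold change divided by the square root of F. Chain ratios used length-scaled levels with 0.5 added to each count and a two-sided exact permutation test, whose smallest p is 0.1. Against a group at 0 counts, a fold was computed with 3 counts per library in place of 0 and is a bound. Ratios with 95% intervals are exact for summed counts. Intervals and floors cover counting error only, as reads carry no molecular identifiers. The replicates are described as biological, but nothing says how cultures were separated, and p-values measure the spread between these libraries, which may be technical. The chains were taken by gene name, and of each other list the 3 lowest and 3 highest called genes were to be named. Vcam1, the third lowest ligand, is drawn only, and Itgb5, the other machinery genes, Nid1, Dag1 and Rpsa were named after their values were seen. The chains and lists were chosen with earlier results of these data known. Alternatives were other scalings, DESeq2 1.42.0, other filters and thresholds, a replicate block and each library left out. The fit was tested on simulated data. In that simulation far fewer genes changed than were called here, so it does not show how the scaling behaves under changes this broad. The values of some single genes are not reported here, though counts over all chains include them.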

Additional observations from a re-analysis of the deposited data

How the results depend on the processing

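Of the chains, 23 were called lower and 2 higher under every other scaling, with DESeq2 and with each library left out. With at least 50 counts in 3 libraries fewer chains were tested, and 18 were lower and 1 higher, with 21 past the adjusted p. There 5227 of 11541 genes were called in either direction. With no filter 25 were lower and 2 higher, where 7408 of 19744 genes were called, against 6442 of 13614 in the main fit. At an absolute log2 fold change over 2 there were 20 lower and 1 higher, Itgam, whose fitted size rested on a single TNF-α count. That fold threshold left 8 laminin partners lower and 0 adhesion machinery genes higher. The share of all tested genes past that larger threshold is not given here, so these counts have no background beside them. Among genes with at least 10 counts in every library, an alternative chosen after seeing the data, 13 chains were lower and 1 higher. Scaling by library totals alone moved the median of all genes from -0.01 to -0.12, and Itgb1 stayed between -0.42 and -0.25 under all alternatives. Same-numbered libraries did not deviate together (Pearson's r 0.0193, -0.00683 and 0.0676), and with the replicate block 23 chains were lower, 2 higher and Itgb1 was at -0.31 (adjusted p = 0.0021). With each library left out, machinery genes called lower numbered 9 to 10 and ligands 13 to 15. With 3 libraries a group, no chain ratio could reach an exact permutation p under 0.1, and chains under 10 counts were limited by depth.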
